A study of Mus musculus with 6 samples.

Results

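The 10 cytokine receptor genes of group 2 innate lymphoid cells (ILC2) examined were Il17rb, Crlf2, Il4ra, Il18r1, Il18rap, Il1r2, Il10ra, Il12rb1, Ifngr1 and Tgfbr2. They were taken by gene symbol as receptors for cytokines that were not added to the culture. All 10 were found among the 23183 genes listed in each library, and all 10 were among the 10501 genes tested. ILC2 are lymphocytes that live in tissue, lack antigen receptors and make type 2 cytokines. Primary wild-type (WT) ILC2 from mouse lung were cultured for 24 h with interleukins IL-2, IL-7 and IL-33 at 10 ng/ml. One group (3 libraries) also received the isotype control antibody IgG2b, and the other (3 libraries) DTA-1, an agonist antibody against GITR, a costimulatory receptor of the TNF receptor family. Every library therefore came from cytokine-activated cells, and there was no group without cytokines. The strain, sex and age of the mice, the sort that isolated the ILC2 and any pooling of animals are not stated by the labels.

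These receptors let ILC2 read signals from epithelium, from other lymphocytes and from themselves. IL-25 (through Il17rb with Il17ra) and TSLP (through Crlf2 with Il7r) are epithelial alarmins that activate ILC2, as IL-33 does, and IL-4 and IL-13 act through Il4ra and STAT6. IL-18 acts through Il18r1 and Il18rap by way of MyD88, whereas Il1r2 is a decoy that binds IL-1 without signalling. IL-10, IL-12 and interferon gamma, through Il10ra, Il12rb1 and Ifngr1, signal by JAK kinases and STAT factors, interferon gamma and IL-10 being known as restraints on ILC2 and IL-12 as a driver of their conversion towards type 1 cells. TGF-beta acts through Tgfbr2, a receptor kinase that recruits Tgfbr1 and phosphorylates SMAD proteins through it.

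None of the 10 receptors passed the limma test over all genes (adjusted p under 0.05), so every difference given here is a measured value without a call. Il10ra and Il12rb1 were higher in each DTA-1 library than in any IgG2b library, at 1.52 and 1.45 times the IgG2b mean. Il1r2 was lower in each DTA-1 library, at 0.812 times, and Il17rb had a mean of 0.651 times the IgG2b mean with overlapping groups. Il4ra, Il18rap, Crlf2 and Tgfbr2 had mean ratios between 0.91 and 1.02. Values are in FPKM, fragments per kilobase of transcript and per 1000000 fragments, which is the unit the deposited values were taken to have, and means are given ± SD with n = 3. Fold changes are log2 differences of FPKM + 1, DTA-1 minus IgG2b, with the SE or 95% interval of the limma fit.

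Over all genes tested, 0.0286% passed as higher and 0.00952% as lower, against 0 of 10 receptors in either direction. At an unadjusted limma p under 0.05, 2 receptors were higher, against 6.22% of all genes tested, and 2 were lower, against 7.73%. The groups did not overlap for 2 higher receptors, against 11.2% of all genes tested, and for 1 lower receptor, against 10.5%. The median log2 fold change was -0.02 over the 10 receptors and 0.01 over all genes tested. With counts this small, the shares of the receptors are not told apart from those of all genes.

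The labelled cell type was checked against markers. All 15 ILC2 identity genes had a mean of at least 1 FPKM, with a summed level of 6891 to 8101 FPKM in the IgG2b libraries and 10526 to 12123 FPKM with DTA-1. By their means over 6 libraries, Il13 (3874 FPKM) and Il5 (2676 FPKM) made up most of this sum. The list as a whole did not share its direction: the median log2 fold change was -0.22, 9 of the 15 genes lay below 0, and 3 were lower without overlap, against 10.5% of all genes tested. These 3 were Klrg1 (97.2 ± 17.6 and 34.1 ± 20.5 FPKM), Il1rl1 (253 ± 53.2 and 182 ± 9.05 FPKM) and Arg1 (95.2 ± 11.8 and 69.3 ± 8.51 FPKM), and none of the 15 passed over all genes. Markers of neutrophils (6 in the files, none with a mean of 1 FPKM, S100a8 and S100a9 listed at 0 in each library), of mast cells and basophils (0 of 6) and of ILC1 and NK cells (0 of 8) were near 0. T cell genes summed to 11.7 to 12.1 FPKM with IgG2b and 9.38 to 10.5 FPKM with DTA-1, most of it Cd3g, which had a mean of 8.84 FPKM. The lists of ILC3, B cells, macrophages and dendritic cells summed to 7.23 FPKM or less in each library. That of epithelial and stromal cells summed to 36.2 to 47.7 FPKM with IgG2b and 21.8 to 40.1 FPKM with DTA-1. Most of it was Pecam1 (mean 31.4 FPKM), and 2 of its 8 genes had a mean of at least 1 FPKM. Cdh5, an endothelial gene of that list, was at or below 0.0117 FPKM in each library. The part of these genes in the receptor values was not tested. Each library held between 18800000 and 20400000 fragments, as estimated from the steps between low values. Separate cultures or animals are not named in the labels, so each p-value rests on a spread between libraries that may be technical. In bulk RNA, fewer cells that carry a transcript and less transcript per cell cannot be told apart.

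Sequences upstream of 4 of the genes are shown because Il1r2 and Il17rb were the receptors with lower values at an unadjusted p under 0.05, and because Il18r1 and Il18rap are neighbouring genes whose products form 1 receptor. They are the 250 bases before the annotated start, read 5′ to 3′ on the strand of the gene, from RefSeq on GRCm38.p6, the assembly of mm10. RefSeq entries were at hand for 8 of the 10 receptors, without Il10ra and Il12rb1. Capitals mark matches on either strand to the NF-kB motif GGGANNNNCC, the AP-1 motif TGANTCA, the GATA motifs, written AGATAA and also TGATAA, or the STAT motif TTCNNNGAA. Il1r2 lies at chr1:40085843-40086092 on the plus strand, Il17rb at chr14:30008897-30009146 on the minus strand, Il18r1 at chr1:40465302-40465551 and Il18rap at chr1:40515112-40515361, both on the plus strand.
Il1r2: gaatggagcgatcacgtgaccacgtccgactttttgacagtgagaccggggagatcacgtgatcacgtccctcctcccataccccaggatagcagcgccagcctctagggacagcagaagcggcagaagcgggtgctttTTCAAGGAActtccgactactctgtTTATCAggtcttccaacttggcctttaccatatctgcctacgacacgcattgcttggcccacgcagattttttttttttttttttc
Il17rb: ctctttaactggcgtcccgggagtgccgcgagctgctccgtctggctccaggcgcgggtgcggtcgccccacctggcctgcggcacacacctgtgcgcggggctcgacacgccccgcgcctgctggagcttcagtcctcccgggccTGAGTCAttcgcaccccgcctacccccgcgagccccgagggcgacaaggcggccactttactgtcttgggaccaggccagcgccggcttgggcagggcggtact
Il18r1: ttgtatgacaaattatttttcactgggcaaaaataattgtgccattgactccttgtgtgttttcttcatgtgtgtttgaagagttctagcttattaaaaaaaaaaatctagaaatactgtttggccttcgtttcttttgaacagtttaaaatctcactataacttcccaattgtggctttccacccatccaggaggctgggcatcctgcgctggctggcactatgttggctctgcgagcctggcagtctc
Il18rap: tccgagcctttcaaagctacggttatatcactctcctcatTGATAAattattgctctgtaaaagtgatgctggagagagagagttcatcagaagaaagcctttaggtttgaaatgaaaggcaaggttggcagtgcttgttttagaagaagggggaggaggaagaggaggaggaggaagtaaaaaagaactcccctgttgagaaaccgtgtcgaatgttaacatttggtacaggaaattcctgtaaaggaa

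The Il1r2 window held a STAT match from 111 to 103 bases before the start, TTCAAGGAA, and a GATA match on the opposite strand from 86 to 81 bases before it, TTATCA. The Il17rb window held an AP-1 match, TGAGTCA, from 104 to 98 bases before the start, and the Il18rap window a GATA match, TGATAA, from 210 to 205 bases before it. RefSeq gives 3 starts for Il18r1, and the window shown, before the first of them, held none of the 4 motifs. The window before the third start, not shown, held STAT matches from 219 to 211 bases before it, TTCTGGGAA, and from 152 to 144 bases before it, TTCCCAGAA. The background was 32851 RefSeq promoter windows of the same length, with a chromosome that holds none of the receptors left out. Of these windows, 7.02% held the STAT motif, 16.6% a GATA motif, 6.75% the AP-1 motif and 17.6% the NF-kB motif. A match is a description of the letters, not a bound site. GENCODE begins the Il1r2 gene further upstream, at 40074079, so another start of that gene lies outside the window.

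The receptors covered a wide range of levels. Il1r2 was the most abundant, with a mean over 6 libraries of 171 FPKM, above 95.5% of all genes tested, and its lowest library (148 FPKM) lay above the highest library of Il10ra (142 FPKM). Il10ra (108 FPKM) and Il4ra (71.7 FPKM) followed, then Il12rb1 and Tgfbr2, at 50.9 and 49.9 FPKM, whose order differed between the groups: Il12rb1 lay above Tgfbr2 in all 3 DTA-1 libraries and below it in all 3 IgG2b libraries. Tgfbr2 in turn lay above Il18rap (37.4 FPKM) without overlap, whereas Il18rap, Il18r1 (31.6 FPKM) and Crlf2 (31.1 FPKM) overlapped in their ranges. Ifngr1 (14.9 FPKM) and Il17rb (9.32 FPKM) were the lowest, with Ifngr1 above Il17rb in 6 of 6 libraries although their ranges overlap.

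**Figure D1:**
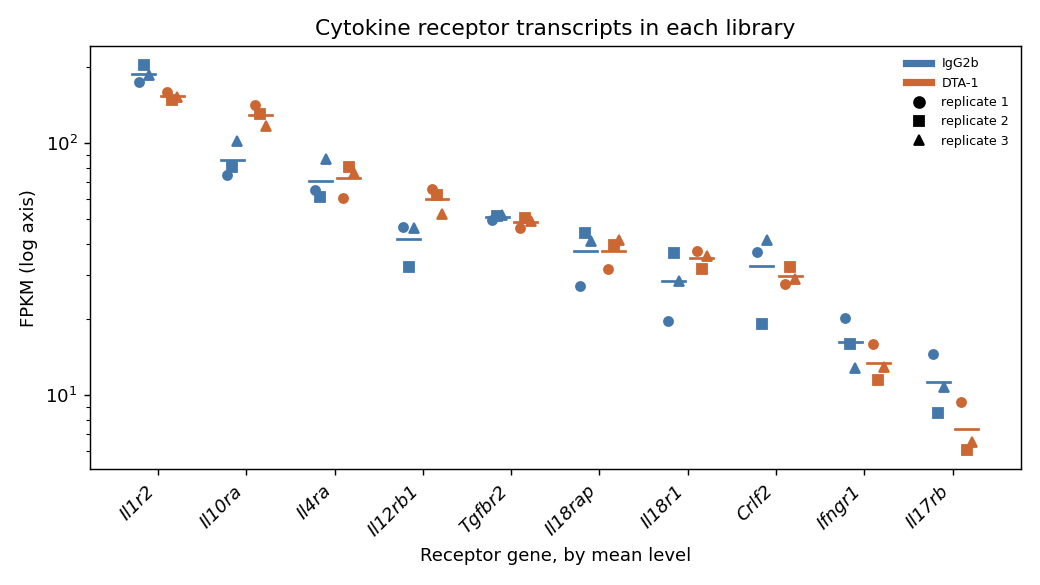
FPKM of the 10 receptors on a log axis, ordered by mean level, with 1 point per library, symbols for the replicate number and a bar at the mean of 3 libraries per group. Il10ra and Il12rb1 sit higher in each DTA-1 library and Il1r2 lower, while the groups of the other 7 overlap.

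Among the receptors that restrain or redirect ILC2, Il10ra differed most by p-value. Il10ra, on chromosome 9 (45253837 to 45269149, minus strand, GENCODE on GRCm38), measured 74.5, 80.8 and 102 FPKM in IgG2b replicates 1, 2 and 3 and 142, 131 and 117 FPKM in DTA-1 replicates 1, 2 and 3. The lowest DTA-1 library lay above the highest IgG2b library. The means were 85.7 ± 14.3 and 130.1 ± 12.5 FPKM, and the log2 fold change was 0.60 ± 0.15 (adjusted p = 0.14 in limma). Its ligand gene Il10, which ILC2 can make themselves, measured 48.7, 155 and 165 FPKM with IgG2b and 3.45, 66.3 and 73.2 FPKM with DTA-1. The Il10 groups overlapped, and the library with the highest Il10ra, DTA-1 replicate 1, had the lowest Il10. The order within groups differed: from replicate 1 to 3 both genes rose with IgG2b, while with DTA-1 Il10ra fell and Il10 rose. The second chain of the receptor, Il10rb, measured 12.6 ± 1.12 and 13.5 ± 1.98 FPKM with overlapping groups.

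Il12rb1, the chain shared by the IL-12 and IL-23 receptors, lies on chromosome 8 (70808449 to 70821424, plus strand). It measured 46.4, 32.2 and 46.3 FPKM in IgG2b replicates 1, 2 and 3 and 65.7, 62.4 and 52.5 FPKM in the DTA-1 replicates. IgG2b replicate 2 was the lowest library, and the groups did not overlap. The means were 41.7 ± 8.19 and 60.2 ± 6.87 FPKM, and the log2 fold change was 0.53 ± 0.17 (adjusted p = 0.214 in limma). The chains that pair with it were near the floor in both groups. Il12rb2, which completes the IL-12 receptor, had means of 0.166 ± 0.0559 and 0.187 ± 0.0504 FPKM, and Il23r, which completes the IL-23 receptor, 0.159 ± 0.0661 and 0.065 ± 0.0595 FPKM. The ligand genes Il12a and Il12b were listed at 0 in each library. Tbx21, the factor that defines type 1 lymphocytes, was at or below 0.101 FPKM in each library.

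Ifngr1, the ligand-binding chain of the interferon gamma receptor (chromosome 10, 19591949 to 19610229, plus strand), measured 20.2, 16.0 and 12.8 FPKM with IgG2b and 16.0, 11.5 and 13.0 FPKM with DTA-1. The groups overlapped, with a log2 fold change of -0.25 and a 95% interval of -0.68 to 0.18. Its signalling partner Ifngr2 measured 12.3, 9.56 and 9.03 FPKM with IgG2b and 23.6, 13.3 and 13.8 FPKM with DTA-1, without overlap and with DTA-1 replicate 1 far above the rest. The Ifngr2 log2 fold change was 0.63 ± 0.22 (limma adjusted p = 0.256), or 0.38 without DTA-1 replicate 1. The Ifngr1 value was -0.09 without IgG2b replicate 1, the library with its highest level. Ifng itself was at or below 0.58 FPKM in each library.

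Tgfbr2 (chromosome 9, 116084293 to 116175360, minus strand) had the narrowest spread of the 10. It measured 49.6, 51.5 and 52.1 FPKM with IgG2b and 46.0, 50.7 and 49.1 FPKM with DTA-1. The log2 fold change was -0.07, with a 95% interval of -0.31 to 0.17, so a change by more than 0.31 in either direction lies outside the interval. Tgfbr1, the kinase it recruits, measured 9.94, 11.1 and 9.24 FPKM with IgG2b and 5.05, 7.31 and 8.72 FPKM with DTA-1. Each DTA-1 library lay below each IgG2b library, and the log2 fold change was -0.49 ± 0.18 (adjusted p = 0.283 in limma). Without DTA-1 replicate 1 the fold change was -0.30. The ligand gene Tgfb1 was abundant, at 221 ± 39.0 and 206 ± 16.1 FPKM with overlapping groups.

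Of the 2 receptors for epithelial alarmins, Il17rb had the lower level. The coefficient of variation between libraries was 27.1% for Il17rb and 36.2% for Crlf2 with IgG2b, and 24.7% and 8.38% with DTA-1. Il17rb, the IL-25 receptor chain (chromosome 14, 29996135 to 30008896, minus strand), measured 14.6, 8.50 and 10.8 FPKM in IgG2b replicates 1, 2 and 3 and 9.43, 6.07 and 6.55 FPKM in DTA-1 replicates 1, 2 and 3. DTA-1 replicate 1 lay above IgG2b replicate 2, so the groups overlapped, and IgG2b replicate 1 was the highest library. The means were 11.3 ± 3.06 and 7.35 ± 1.82 FPKM, and the log2 fold change was -0.55 ± 0.22 (adjusted p = 0.308 in limma). With library quality weights the adjusted limma p of Il17rb was 0.0259, over a range of 0.0259 to 0.692 across all alternatives. In that setting 314 of the 10501 genes tested passed as lower, against 1 in the main fit. The proliferation gene Mki67 was also highest in IgG2b replicate 1, at 115 FPKM against 54.8 and 43.3 FPKM in the other IgG2b libraries. With DTA-1 it measured 27.3 to 39.6 FPKM. The proliferation genes Top2a and Pcna were likewise lower in each DTA-1 library. Top2a was at least 86.4 FPKM with IgG2b and at most 76.4 FPKM with DTA-1, and Pcna at least 260.3 and at most 187 FPKM. The part of proliferation in the Il17rb difference, or in that of any other receptor, was not tested. Il17ra, the shared chain that pairs with Il17rb, measured 13.6 ± 1.08 and 12.5 ± 1.06 FPKM. The Il25 gene was listed at 0 in each library.

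Crlf2, the TSLP receptor chain (chromosome 5, 109554709 to 109558993, minus strand), measured 37.1, 19.2 and 41.5 FPKM with IgG2b and 27.6, 32.4 and 29.0 FPKM with DTA-1. IgG2b replicate 2 alone was low, and all DTA-1 values lay inside the IgG2b range. The log2 fold change was -0.06 with a 95% interval of -0.66 to 0.53, so this spread leaves changes of that size undetected. Its partner Il7r, which also binds the IL-7 of the culture, measured 42.0, 73.0 and 63.2 FPKM with IgG2b and 35.2, 51.2 and 54.3 FPKM with DTA-1. Tslp did not exceed 0.0521 FPKM in any library.

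Il4ra, the chain common to the IL-4 and IL-13 receptors (chromosome 7, 125552120 to 125579474, plus strand), measured 65.0, 61.1 and 86.3 FPKM with IgG2b and 60.8, 80.8 and 76.1 FPKM with DTA-1. The groups overlapped, with a log2 fold change of 0.04 and a 95% interval of -0.34 to 0.43. Il2rg, the common gamma chain that pairs with Il4ra for IL-4, measured 313, 356 and 379.8 FPKM with IgG2b and 469.5, 467 and 433 FPKM with DTA-1, without overlap (log2 fold change 0.39 ± 0.11, limma adjusted p = 0.188). Il13ra1, which pairs with Il4ra for IL-13, and the decoy Il13ra2 were listed at 0 in each library. Their ligand gene Il13 lay far above every receptor, at 2326 ± 453 and 5422 ± 720 FPKM (limma adjusted p = 0.0663). Il4 measured 11.2 ± 2.80 and 10.0 ± 0.508 FPKM with overlapping groups.

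The receptor genes Il1r2, Il18r1 and Il18rap belong to the cluster of interleukin 1 receptor genes on chromosome 1. GENCODE places Il1r2 at 40074079 to 40125231, followed on the same plus strand by Il1r1, Il1rl2, Il1rl1 (40429570 to 40465415), Il18r1 (40465552 to 40500854) and Il18rap (40515362 to 40551705). Il1r2 measured 175, 204 and 187 FPKM in IgG2b replicates 1, 2 and 3 and 159, 148 and 153 FPKM in DTA-1 replicates 1, 2 and 3. The groups did not overlap, and the log2 fold change was -0.30 ± 0.11 (adjusted p = 0.276 in limma). Neutrophils are known for high Il1r2. Of their 6 marker genes, S100a8, S100a9, Elane and Retnlg were listed at 0 in each library. Cxcr2 measured 0.361 to 0.704 FPKM and Mpo at most 0.0209 FPKM. The part of other cells in the Il1r2 values was not tested. The signalling IL-1 receptor gene Il1r1, by contrast, was at or below 0.182 FPKM in each library, and the ligand genes Il1a and Il1b had means of at most 0.121 FPKM in either group.

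Il18r1, the ligand-binding chain of the IL-18 receptor, measured 19.8, 36.8 and 28.3 FPKM with IgG2b and 37.3, 31.8 and 35.7 FPKM with DTA-1. Il18rap, its accessory chain, measured 27.1, 43.9 and 40.8 FPKM with IgG2b and 31.6, 39.4 and 41.5 FPKM with DTA-1. Both chains were lowest in IgG2b replicate 1 and the groups overlapped for both, with log2 fold changes of 0.33 (95% interval -0.14 to 0.81) and 0.03 (95% interval -0.42 to 0.48). Without IgG2b replicate 1 these were 0.11 and -0.18, so the size of the first and the direction of the second depend on that library, and the Il18r1 value was 0.54 without IgG2b replicate 2. Il1rl1, the IL-33 receptor gene that ends shortly before Il18r1 begins, measured 253 ± 53.2 and 182 ± 9.05 FPKM, lower in each DTA-1 library (limma adjusted p = 0.249). Within the cluster, the values of Il1r2 and Il1rl1 were thus lower with DTA-1 without overlap, those of Il18r1 and Il18rap overlapped, and Il1r1 and Il1rl2 did not pass the filter on low values. The IL-18 ligand gene was at or below 0.699 FPKM in each library, and Il18bp, which encodes its soluble antagonist, measured 1.03 ± 0.417 and 1.45 ± 0.146 FPKM.

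**Figure D2:**
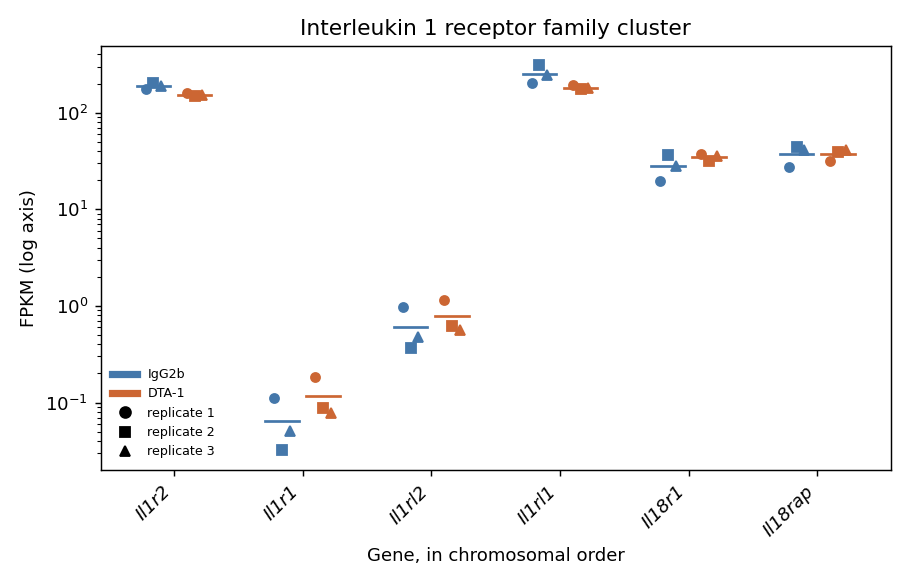
FPKM on a log axis of the 6 interleukin 1 receptor family genes of the chromosome 1 cluster in their chromosomal order, with 1 point per library and a bar at each group mean. Il1r2 and Il1rl1 stand at 148 FPKM or more in each library, Il18r1 and Il18rap between 19.8 and 43.9 FPKM, and Il1r1 and Il1rl2 at 1.16 FPKM or less.

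The plot of fold changes with intervals shows that 4 of 10 receptor intervals exclude 0 before adjustment, 2 above it (against 6.22% of all genes tested) and 2 below it (against 7.73%). Of the 13 partner chains, 7 passed the filter on low values, and none passed over all genes. Among these 7, Il2rg, Ifngr2 and Il1rap were higher without overlap (against 11.2% of all genes tested) and Tgfbr1 lower (against 10.5%), with a median log2 fold change of 0.08.

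**Figure D3:**
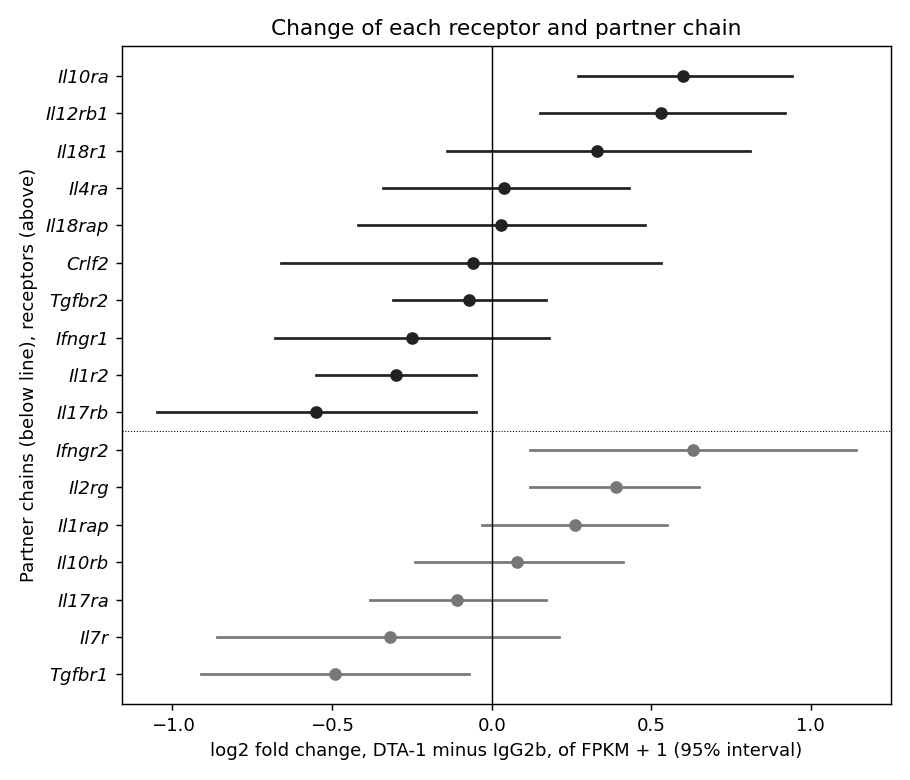
Log2 fold change of FPKM + 1, DTA-1 minus IgG2b, on the horizontal axis for the 10 receptors (above the dotted line) and the 7 tested partner chains (below it), with points for estimates and lines for unadjusted 95% intervals. The intervals of Il10ra (0.27 to 0.94) and Il12rb1 (0.15 to 0.92) lie above 0 and those of Il1r2 (-0.55 to -0.05) and Il17rb (-1.05 to -0.05) below it.

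Because a receptor needs its chains together, the ratio of the receptor to its partner was computed within each library for the 8 pairs whose partner had a mean of at least 1 FPKM. Such a ratio does not depend on the scaling of a library. The ratio of Ifngr1 to Ifngr2 was 1.64, 1.67 and 1.41 with IgG2b and 0.676, 0.859 and 0.94 with DTA-1. The chain with the higher FPKM thus differed between the groups: Ifngr1 exceeded Ifngr2 in each IgG2b library and lay below it in each DTA-1 library. The level of such a ratio depends on the transcript lengths used, isoforms are not told apart, and protein was not measured. The ratios therefore do not show which chain limits a receptor. Il10ra exceeded Il10rb 6.78 ± 0.797 times with IgG2b and 9.68 ± 0.513 times with DTA-1, without overlap. The decoy Il1r2 exceeded Il1rap, the accessory chain it can bind, 55.0 ± 3.93 times with IgG2b and 35.8 ± 3.34 times with DTA-1, also without overlap. Il18rap to Il18r1 (1.33 ± 0.128 and 1.08 ± 0.207), Il17rb to Il17ra (0.827 ± 0.172 and 0.582 ± 0.0919), Tgfbr2 to Tgfbr1 (5.09 ± 0.511 and 7.23 ± 1.76), Crlf2 to Il7r (0.60 ± 0.313 and 0.65 ± 0.127) and Il4ra to Il2rg (0.202 ± 0.0281 and 0.159 ± 0.026) overlapped. In the exact 2-sided permutation test on log2 ratios, the pairs without overlap had p = 0.1, the smallest value that 3 against 3 libraries allow, and 0.27 after Benjamini-Hochberg adjustment over the 8 ratios. No ratio can therefore pass in this design.

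**Figure D4:**
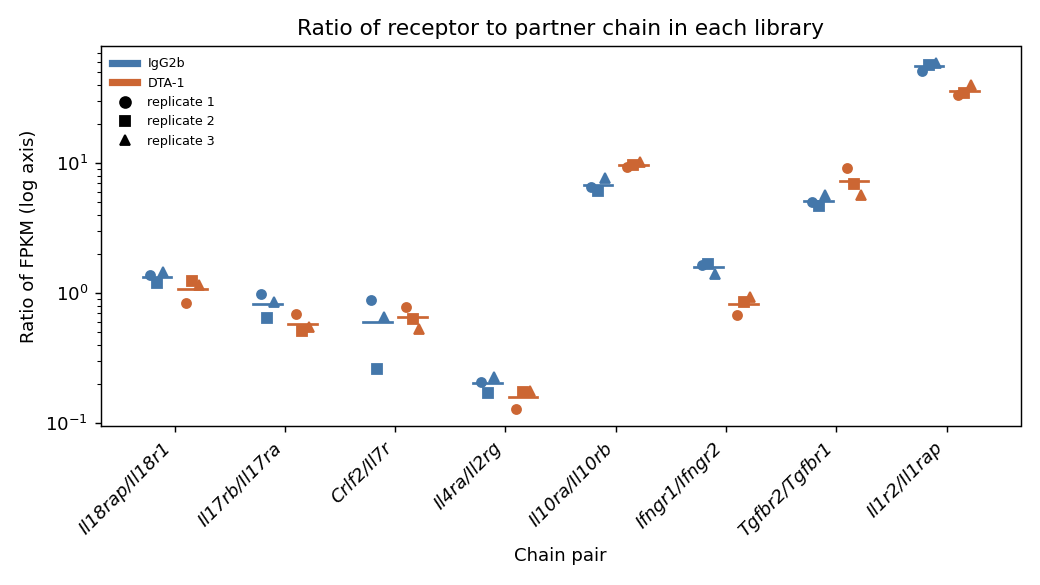
Ratio of receptor FPKM to partner chain FPKM on a log axis for 8 chain pairs, with 1 point per library, symbols for the replicate number and a bar at each group mean. The DTA-1 points of Ifngr1/Ifngr2 and Il1r2/Il1rap lie below all IgG2b points, and those of Il10ra/Il10rb above them.

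Downstream of these receptors, 12 genes of JAK kinases, STAT factors and SOCS inhibitors were listed, and 10 of the 12 had log2 fold changes above 0, as did 5527 of the 10501 genes tested. None of the 12 passed over all genes, 6 were higher without overlap (against 11.2% of all genes tested) and 1 lower (against 10.5%), and the list median was a log2 fold change of 0.36. Stat5a, the factor of IL-2, IL-7 and TSLP signalling, measured 43.6 ± 4.73 and 75.0 ± 13.0 FPKM (limma adjusted p = 0.101). Tyk2, the kinase bound to Il12rb1 and Il10rb, measured 21.6 ± 3.22 and 33.4 ± 3.77 FPKM (limma adjusted p = 0.14), and Jak2, which serves the IL-12 and interferon gamma receptors, 62.4 ± 16.2 and 94.6 ± 13.4 FPKM (limma adjusted p = 0.214). Stat4, Stat5b and Stat6 were the others that were higher without overlap. All 6 were highest in DTA-1 replicate 1. The lowest DTA-1 library of Stat6 (33.6 FPKM) lay just above the highest IgG2b library (33.4 FPKM), and that of Stat4 at 5.46 against 5.25 FPKM. With both replicates 1 left out, the log2 fold changes of Stat5a, Tyk2 and Jak2 were 0.63, 0.53 and 0.33, against 0.76, 0.61 and 0.62 in the main fit. Socs3, an inhibitor of IL-6 family and other cytokine signals, was the single gene that was lower without overlap, at 36.8 ± 8.58 and 24.7 ± 3.29 FPKM (limma adjusted p = 0.226). With library quality weights, Stat5a, Tyk2 and Jak2 passed as higher and Socs3 as lower over all genes, with limma adjusted p of 0.0209 to 0.0444. In that setting 161 of the 10501 genes tested passed as higher and 314 as lower, against 3 and 1 in the main fit. The other genes of the list were not followed with these weights, so the passes are not a count over the 12. The genes of this list include partners of the added cytokines, so the list is not specific to the 10 receptors.

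The adaptors of the IL-1, IL-18 and IL-17 receptor families had a median log2 fold change of 0. Of 13 tested, Traf6 (15.7 ± 0.664 and 23.0 ± 4.33 FPKM), the inhibitor Tollip (15.6 ± 1.09 and 19.8 ± 0.624 FPKM) and the kinase gene Map3k7 (21.2 ± 0.382 and 24.9 ± 1.38 FPKM) were higher without overlap, and the kinase gene Irak4 (7.75 ± 1.68 and 5.77 ± 0.492 FPKM) lower. Over all genes tested, 11.2% were higher and 10.5% lower without overlap. Myd88 measured 52.7 ± 4.99 and 54.2 ± 3.64 FPKM. Of 18 tested genes of TGF-beta and SMAD signalling, Itgav was the single gene without overlap, at 17.5 ± 2.40 and 21.8 ± 1.03 FPKM, and the median was 0.03. Itgav encodes 1 chain of integrins that can release active TGF-beta. The integrin chain gene Itgb8 of the same list was at or below 0.421 FPKM in each library and was not tested.

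Among 15 tested targets of interferon gamma, 3 were higher without overlap, against 11.2% of all genes tested, and 3 lower, against 10.5%, and the median was 0.02. Cd274, which encodes PD-L1, measured 6.56 ± 0.571 and 9.9 ± 1.2 FPKM (limma adjusted p = 0.148), and the guanylate-binding protein gene Gbp3 9.69 ± 0.863 and 6.15 ± 2.06 FPKM (limma adjusted p = 0.24). The immunoproteasome gene Psmb9 (58.0 ± 7.58 and 46.0 ± 1.77 FPKM) and the GTPase gene Irgm1 (17.6 ± 1.5 and 13.1 ± 3.15 FPKM) were the other lower ones. The remaining higher ones, named after their values were seen, were Gbp4, at 23.1 ± 7.43 and 32.4 ± 1.45 FPKM, and the chemokine gene Cxcl10, at 1.05 ± 0.45 and 4.87 ± 2.97 FPKM. The targets thus did not share a direction.

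**Figure D5:**
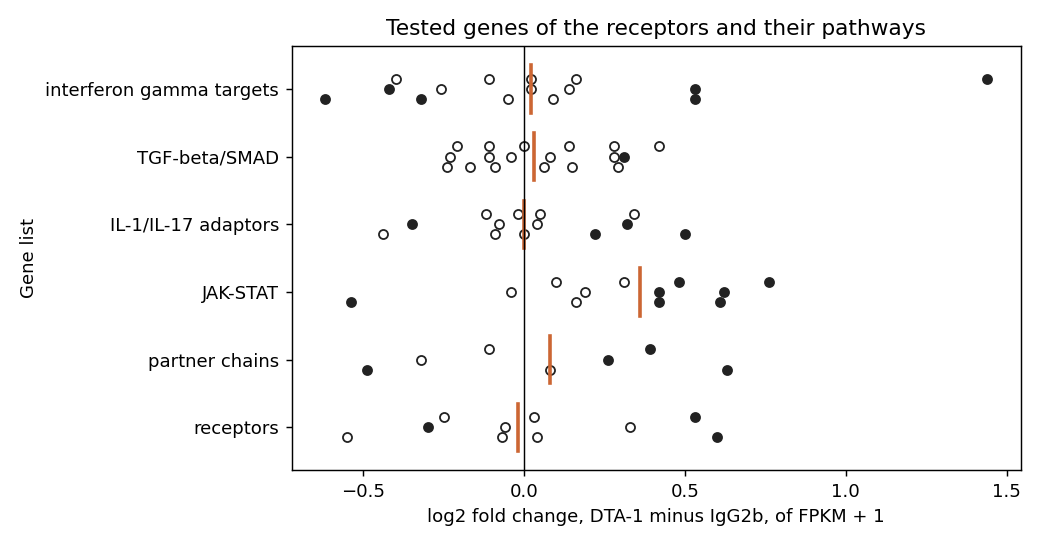
Log2 fold change of FPKM + 1, DTA-1 minus IgG2b, for each tested gene of 6 lists, with filled points where the groups do not overlap and an orange line at the list median. The JAK-STAT median lies at 0.36 and the other medians between -0.02 and 0.08.

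The 3 receptors with the widest range over the libraries were each set beside the genes of most similar profile, by root mean square distance of log2(FPKM + 1) centred on the gene mean over 6 libraries. Among 8156 genes with a mean of at least 5 FPKM, Il17rb (range 1.14) was nearest to Socs3 (distance 0.093), Cdca7 (0.108) and Fam102a (0.115). Socs3 measured 46.3, 29.7 and 34.4 FPKM with IgG2b and 28.4, 23.5 and 22.1 FPKM with DTA-1, the same highest library as Il17rb. Crlf2 (range 1.07) was nearest to Endog (0.060), Baiap2 (0.073) and Jak3 (0.101), all with their lowest level in IgG2b replicate 2. Jak3, for example, stood at 60.8 FPKM there and at 91.6 FPKM or more elsewhere. Il12rb1 (range 1.01) was nearest to Piezo1 (0.044), Zfp219 (0.059) and Pold4 (0.061), which were also lowest in IgG2b replicate 2. Because these genes were chosen for their likeness to the receptor, a shared highest or lowest library follows from the choice.

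For each receptor, the spread between libraries was larger than the counting error. At the estimated depth and the longest annotated transcript, the least covered receptor value was 319 fragments (Il17rb), a counting error of 5.6%, against a spread of 27.1% and 24.7% between IgG2b and DTA-1 libraries for that gene. Il10ra rested on at least 4978 fragments in each library and Il1r2 on at least 4277.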

How the data were processed

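Per the labels' protocols, libraries were made from total RNA with NEBNext Ultra II Directional reagents. The submitters' processing notes name TopHat and mm10. The authors deposited 1 table per library with 1 value per gene symbol, computed by them from the aligned reads and taken here as FPKM. The header does not name the unit, which was inferred: values are not whole, and at low levels their steps shrink as transcripts get longer. The program behind the values and its use of strand are not stated in the labels, and isoforms are not told apart. An exact 0 can be a failed estimate and is given as listed at 0. Groups came from the titles. The treatment tags of replicates 2 and 3 (IgG3b, IgG4b, DTA-2, DTA-3) differ from them and were not used.

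The test was limma 3.58.1 (R 4.3.3) on log2(FPKM + 1), which understates changes of low genes, for genes that reached 1 FPKM in 3 or more libraries. The model held the group alone, with trended and robust moderation, 2-sided p-values and Benjamini-Hochberg adjustment. The receptors and lists were chosen with earlier results of these data known. Genes named by rule were all 10 receptors, their partner chains, ligands whose mean reached 1 FPKM, and up to 4 genes per pathway list. The latter are those whose groups do not overlap and whose mean reached 5 FPKM, taken by smallest p. Other genes were named outside this rule, among them Stat4, Stat5b, Stat6, Myd88, Gbp4, Cxcl10, ligands near 0 and the cell type and proliferation markers. On simulated data for this comparison (10501 genes, 200 changed), 35.5% of genes changed 1.5-fold and 93.7% of those changed 2-fold were recovered. The simulated noise was independent and equal between libraries, which the real libraries need not share. In the real data only 3 genes passed as higher and 1 as lower. Il13, at 2.33 times its IgG2b mean, did not pass (limma adjusted p = 0.0663). The simulated shares are therefore not a detection rate for the receptors. One gene of the JAK-STAT list is not reported here. Coordinates are from GENCODE M21. Figures were drawn with matplotlib 3.10.9.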

Additional observations from a re-analysis of the deposited data

How the results depend on the processing

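Alternatives covered the pseudocount (0.1 and 0.5), the filter, scaling between libraries, the moderation, a replicate block, library quality weights and leaving out each library. Leaving out both replicates 1 together was added after seeing the data. Il10ra, Il12rb1, Il1r2, Il17rb, Il18r1, Ifngr1 and Tgfbr2 kept their direction in all 16 alternatives. The count of genes past the threshold was 3 higher and 1 lower. It was 1 higher with no filter on low values, 6 higher with both replicates 1 left out and 2 lower when scaled to equal totals. With library quality weights it was 161 higher and 314 lower, and 1 receptor, Il17rb, passed as lower, as did Il1rl1 and Socs3, while Il13, Stat5a, Tyk2, Jak2, Itgav and Cd274 passed as higher. These weights ran from 0.26 (IgG2b replicate 2) to 5.95 (DTA-1 replicate 2). With each library left out in turn, 1 to 3 genes were higher and 1 was lower. The receptors without overlap then numbered 2 to 3 higher and 1 to 3 lower. Receptors lower without overlap were 2 when scaled to equal totals and 3 with both replicates 1 left out. Groups with fewer libraries overlap less easily by design. The share over all genes was not computed for these settings, so these counts say nothing about the receptors in particular. The cause of the changed counts was not tested.

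With the replicate block, 59 genes were higher and 126 lower, and no receptor passed. Il13 passed as higher. The numbers in the titles are not shown to pair the libraries: deviations of same-numbered libraries correlated at 0.39, -0.10 and -0.13 across genes. Only replicates 1 correlated best with their own number. IgG2b replicate 2 correlated at 0.49 with DTA-1 replicate 3, and IgG2b replicate 3 at 0.38 with DTA-1 replicate 2. A pairing under other numbers was not tested.

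Values near 0 changed sign. Leaving out 1 library gave Crlf2 0.06 (IgG2b replicate 1) and 0.14 (IgG2b replicate 3), Il4ra -0.01, -0.06 and -0.04 (IgG2b replicate 1, IgG2b replicate 2, DTA-1 replicate 2), Il18rap -0.18, -0.01 and -0.05 (IgG2b replicate 1, DTA-1 replicates 2 and 3), Il10rb -0.01 (DTA-1 replicate 1), Il4 0.03 (IgG2b replicate 2) and Tgfb1 0.04 (IgG2b replicate 1). The other ends of these leave-one-out ranges were -0.39 for Crlf2, 0.19 for Il4ra, 0.16 for Il18rap, 0.19 for Il10rb, -0.31 for Il4 and -0.20 for Tgfb1. With both replicates 1 left out, Crlf2 was 0.11, Il18rap -0.06, Il10rb -0.08 and Tgfb1 0.06. Il4ra was -0.02 and Il4 0.13 with library quality weights, and Il18rap -0.0023 when scaled to equal totals.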
